A study of Mus musculus with 39 samples.

Results

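Myeloperoxidase and the neutrophil serine proteases are the signature cargo of the primary (azurophil) granule of neutrophils. The 5 genes described here are Mpo, Elane, Prtn3, Ctsg and Prss57, chosen by name with earlier results of these data known. Each was measured by the probe set whose platform annotation gives that single symbol. All 5 had exactly 1 such probe set, out of 22180 genes with a single symbol. They were followed across 13 groups of 3 mice in mouse leukaemias made with AE9a, which is a shortened splice product of the AML1-ETO (RUNX1-RUNX1T1) fusion gene found in human t(8;21) leukaemia. The AE9a arm carried the oncogene alone, the AE9a+miR-126 arm also received extra miR-126, and the miR-126KO+AE9a arm combined the oncogene with deletion of miR-126. Each leukaemia arm was sampled at passages 1, 2, 3 and 4 of transplantation into recipient mice. The normal control group (3 mice) came from passage 1 only, so at passages 2 to 4 a difference from it cannot be told apart from an effect of passage. All groups shared transplantation, sorting of CD45.1+ donor cells from recipient bone marrow at end stage, and array hybridisation of total RNA. Not given in the sources used here are mouse age, the vector and its promoter, and the number of donors behind an arm.

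Primary granule genes are transcribed mostly in promyelocytes, before the secondary and tertiary granule genes of later neutrophil precursors come on. Myeloperoxidase makes hypochlorous acid from hydrogen peroxide and chloride. Neutrophil elastase (Elane), proteinase 3 (Prtn3), cathepsin G (Ctsg) and neutrophil serine protease 4 (Prss57) are made as inactive precursors, which cathepsin C trims, and are packed on serglycin. Their promoters are known to respond to C/EBP, ETS (PU.1), MYB and RUNX factors, and the fusion behind AE9a binds DNA through the runt domain of RUNX1.

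By RefSeq on GRCm38.p6, Mpo lies at chr11:87793784-87804412, Elane at chr10:79886312-79888216, Prtn3 at chr10:79879667-79883174, Ctsg at chr14:56099885-56102574 and Prss57 at chr10:79781474-79794684. Elane and Prtn3 are adjacent genes whose starts are 6.645 kb apart. The 250 bases before the start of each gene are shown for the 4 members found in the RefSeq promoter table, since Elane and Ctsg moved apart in the arrays although these genes share a granule. Capitals mark AGGAAGT, a letter string of ETS sites, and ACCACA, a letter string of RUNX sites read on the other strand.
Mpo: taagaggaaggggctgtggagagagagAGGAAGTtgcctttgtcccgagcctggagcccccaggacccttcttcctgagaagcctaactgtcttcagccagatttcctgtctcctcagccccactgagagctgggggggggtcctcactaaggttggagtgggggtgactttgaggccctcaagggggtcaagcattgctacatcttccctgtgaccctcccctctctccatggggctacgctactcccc
Elane: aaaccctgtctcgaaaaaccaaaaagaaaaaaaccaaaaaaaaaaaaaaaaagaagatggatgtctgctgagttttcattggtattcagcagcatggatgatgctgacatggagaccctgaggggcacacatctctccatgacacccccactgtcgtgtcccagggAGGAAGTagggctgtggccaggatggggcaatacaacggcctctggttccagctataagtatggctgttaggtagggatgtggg
Prtn3: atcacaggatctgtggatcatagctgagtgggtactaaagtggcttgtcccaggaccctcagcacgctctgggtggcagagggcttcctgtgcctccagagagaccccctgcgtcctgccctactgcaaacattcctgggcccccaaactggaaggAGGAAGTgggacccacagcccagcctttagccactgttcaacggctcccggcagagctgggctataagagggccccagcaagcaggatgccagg
Ctsg: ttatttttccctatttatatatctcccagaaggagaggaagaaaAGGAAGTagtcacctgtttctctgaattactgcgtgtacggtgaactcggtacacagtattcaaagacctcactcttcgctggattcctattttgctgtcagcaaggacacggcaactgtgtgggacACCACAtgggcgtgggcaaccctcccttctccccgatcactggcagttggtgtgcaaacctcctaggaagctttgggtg
These windows are chr11:87793534-87793783 (plus strand), chr10:79886062-79886311 (plus), chr10:79879417-79879666 (plus) and chr14:56102575-56102824 (minus), in that order. The motif strings were searched on both strands. They were chosen after the sequences had been seen, so which of these genes hold a string depends in part on that choice. The counts beside the shares of all windows therefore test nothing. AGGAAGT was found in 4 of 4, at -223 to -217 from the start in Mpo, -84 to -78 in Elane, -94 to -88 in Prtn3 and -206 to -200 in Ctsg, and in 7.8% of 27025 promoter windows of the same length. TGTGGT, the other strand of ACCACA, was found only in Ctsg, at -79 to -74, and in 14.2% of all windows. The MYB string AACNG was in 4 of 4 but also in 74.1% of windows, and the C/EBP string TTGCNNAA was in 0 of 4 and in 9.55% of windows. A match is a description of letters and shows no binding. The agent that differed between the arms is shown with its seed, bases 2 to 8, in capitals, at chr2:26591402-26591423 on the plus strand. Not given in the sources used here is which strand of miR-126 the added construct yields.
mmu-miR-126a-3p: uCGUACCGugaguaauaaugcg

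The values are the deposited log2 expression values, on which a difference of 1 is a doubling, and levels of different genes are not set against each other. A gene passed, and is said to have risen or fallen, at a Benjamini-Hochberg adjusted p under 0.05 over the 22180 genes in limma. Errors of differences are standard errors of that fit, and adjusted p-values below are from it. No label ties a recipient to a donor, and the p-values therefore reflect only how far these individual mice spread. Ptprc, which encodes the CD45 used for sorting, read 10.06 to 11.51 as group means. The mean level of 5 leukocyte genes (Ptprc, Spn, Cd53, Coro1a and Laptm5) was 9.27 and 9.52 in AE9a+miR-126 at passages 3 and 4. In the other groups it was 9.69 to 10.16. The SD of each array over its probe sets was 1.868 to 2.08 in normal controls, 1.86 to 2.059 in AE9a, 1.781 to 2.035 in miR-126KO+AE9a and 1.428 to 2.028 in AE9a+miR-126. Of the 8 arrays with an SD under 1.8, called low-spread arrays here, 7 were AE9a+miR-126 (replicates 1 and 2 of passage 2, all 3 of passage 3, replicates 1 and 2 of passage 4) and 1 was miR-126KO+AE9a passage 2 replicate 3. Their part in the results was not tested beyond the values given beside them. In RNA of sorted populations, fewer promyelocytes and less granule mRNA per cell cannot be told apart.

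**Figure D1:**
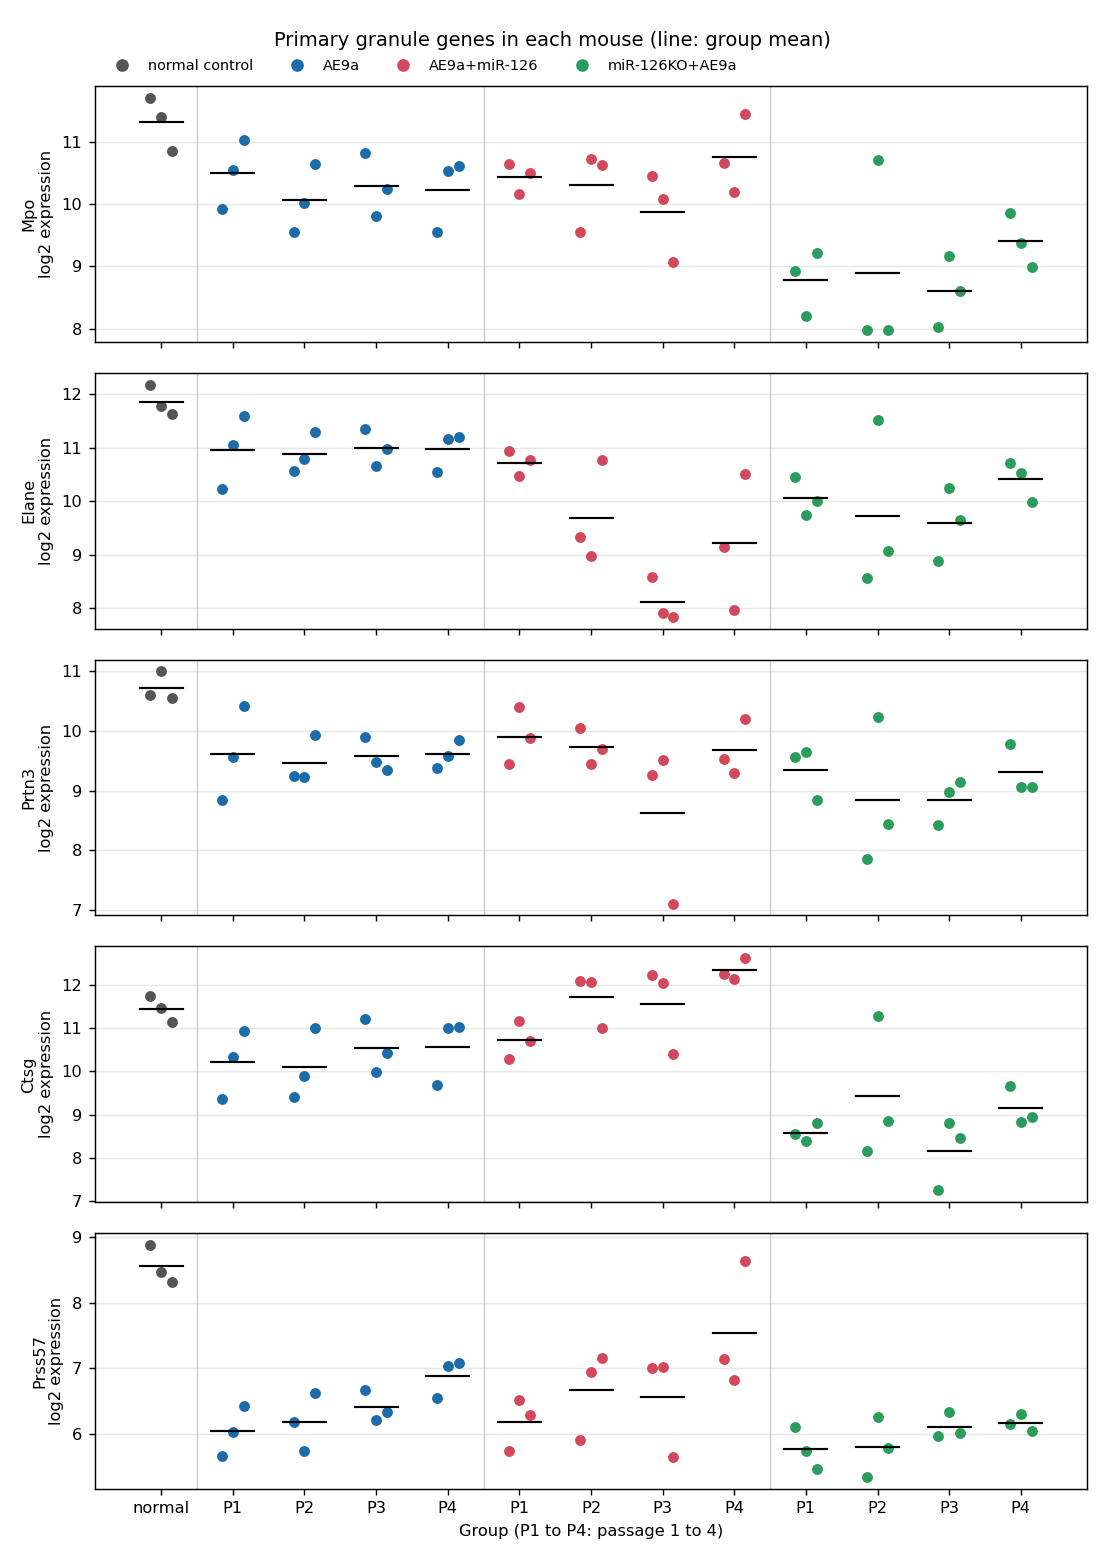
Log2 expression of the 5 genes (1 panel each) in every mouse, with groups along the horizontal axis; points are mice and black lines are group means. The lowest group means of Mpo and Ctsg were those of miR-126KO+AE9a at passage 3, Elane lay lowest in AE9a+miR-126 at passage 3, and Prss57 lay highest in normal controls.

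Mpo, the peroxidase, was highest in normal marrow and lowest in the knockout arm. Its level fell against normal controls at all 4 passages of miR-126KO+AE9a, by 3.75-fold to 6.54-fold, and did not pass against AE9a when miR-126 was added. Normal mice read 11.70, 11.39 and 10.84. AE9a mice (replicates 1, 2 and 3) read 9.93, 10.54 and 11.03 at passage 1, then 9.55, 10.01 and 10.63, then 10.82, 9.80 and 10.24, and at passage 4 read 9.55, 10.52 and 10.61. The AE9a range touched the lower end of the normal range only at passage 1. Mice of AE9a+miR-126 read 10.64, 10.16 and 10.49 at passage 1, then 9.55, 10.73 and 10.62, then 10.45, 10.09 and 9.08, and at passage 4 read 10.66, 10.19 and 11.43. Mice of miR-126KO+AE9a read 8.93, 8.21 and 9.22 at passage 1, then 7.98, 10.70 and 7.99, then 8.03, 9.17 and 8.61, and at passage 4 read 9.85, 9.38 and 8.99. All 12 knockout mice lay below every normal mouse, and replicate 2 of passage 2 stood apart from its group, with the highest value of all 5 genes there.

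Against normal controls Mpo in the knockout arm differed at passages 1 to 4 by -2.52 ± 0.52 (adjusted p = 0.00121), -2.42 (0.00193), -2.71 (0.000828) and -1.91 (0.0239). In AE9a the differences were -0.81 (adjusted p = 0.359), -1.25 (0.143), -1.02 (0.266) and -1.08 (0.322), so none passed, although passage 2 did in a fit of the compared groups only (adjusted p = 0.0189) and after cyclic loess (-1.40, 0.0419). With added miR-126 they were -0.88 (adjusted p = 0.353), -1.01 (0.138), -1.44 (0.0192) and -0.55 (0.427). Set against AE9a over the 4 passages, Mpo in the knockout fell by 1.35 on the log2 scale (-1.35 ± 0.26, 2.55-fold, adjusted p = 0.00067, n = 12 and 12), and with added miR-126 it differed by 0.07 ± 0.26 (adjusted p = 0.826). The value with added miR-126 read 0.57 with spread as a covariate (adjusted p = 0.317), 0.56 after cyclic loess (0.0639) and 0.57 without the low-spread arrays (0.532). The knockout mean was below the AE9a mean at each passage, at -1.71, -1.18, -1.68 and -0.82, but no single passage passed (adjusted p = 0.0838, 0.216, 0.133 and 0.81). The passage 1 difference did pass in 4 of 8 alternatives, namely in the compared-groups fit (0.0167), with spread as a covariate (-1.82, 0.0288), after cyclic loess (-1.78, 0.0282) and without the low-spread arrays (0.0383). The passage 3 fall with added miR-126 was lost without its replicate 3 (-1.04, adjusted p = 0.137) or without normal replicate 1 (-1.25, 0.0806), and read -0.44 with array spread as a covariate (adjusted p = 0.729) and -0.44 after cyclic loess (0.47), over alternatives with adjusted p from 0.0159 to 0.729. The passage 2 fall in the knockout was lost in the compared-groups fit (adjusted p = 0.0587). The passage 4 fall was lost without each of 4 arrays (knockout replicates 2 and 3, normal replicates 1 and 2; -1.89 to -1.70, adjusted p = 0.0751 to 0.108), and without knockout replicate 2 at passage 2 the difference from AE9a there passed (-2.08, 0.00671).

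Elane, which encodes the elastase that is mutated in human congenital neutropenias, was highest in normal marrow and lowest with added miR-126 at passages 3 and 4. Normal mice read 12.18, 11.78 and 11.63. AE9a mice read 10.23, 11.06 and 11.61 at passage 1, then 10.56, 10.78 and 11.30, then 11.36, 10.66 and 10.98, and at passage 4 read 10.54, 11.17 and 11.20. All 12 AE9a mice lay below the normal range, within 10.23 to 11.61. Mice of AE9a+miR-126 read 10.94, 10.46 and 10.77 at passage 1, then 9.32, 8.97 and 10.77, then 8.58, 7.90 and 7.83, and at passage 4 read 9.14, 7.97 and 10.52. The 5 AE9a+miR-126 arrays of ordinary spread lay at 10.46 to 10.94 and the 7 low-spread arrays at 7.83 to 9.32, so the low Elane values and the low spread fell on the same arrays. Mice of miR-126KO+AE9a read 10.45, 9.75 and 10.00 at passage 1, then 8.56, 11.53 and 9.06, then 8.88, 10.25 and 9.64, and at passage 4 read 10.71, 10.54 and 9.98.

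With added miR-126 Elane fell against AE9a over the 4 passages by 1.52 on the log2 scale (-1.52 ± 0.28, 2.87-fold, adjusted p = 7.55e-05). By passage the differences were -0.24 (adjusted p = 0.993), -1.19 (0.158), -2.89 ± 0.56 (7.43-fold, adjusted p = 0.000156) and -1.76 ± 0.56 (3.39-fold, adjusted p = 0.0227), with every mouse below every AE9a mouse at passages 3 and 4. With array spread as a covariate the average read -0.90 (adjusted p = 0.095), passage 3 read -1.63 (0.17) and passage 4 read -0.97 (0.366). Without the low-spread arrays, which leaves passages 1, 2 and 4, the average read -0.27 (adjusted p = 0.844) and passage 4 -0.45 (0.841), and over all 8 alternatives the adjusted p of the average ran from 6e-05 to 0.844. The passage 4 call was also lost in a fit of the compared groups only (adjusted p = 0.135), after cyclic loess (-1.27, 0.0894), and without AE9a replicate 2 (-1.66, 0.0655) or 3 (-1.65, 0.068) or AE9a+miR-126 replicate 1 (-1.73, 0.0797) or 2 (-1.14, 0.213). At passage 2 the difference passed without AE9a+miR-126 replicate 3 (-1.73, 0.0373).

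In the knockout Elane also fell against AE9a over the 4 passages, by 1.01 on the log2 scale (-1.01 ± 0.28, 2.01-fold, adjusted p = 0.0188), with single passages at -0.90 (adjusted p = 0.609), -1.16 (0.266), -1.41 (0.354) and -0.56 (0.97). Without knockout replicate 2 the passage 2 difference passed (-2.07, adjusted p = 0.0165). Against normal controls Elane in the knockout differed by -1.80 (adjusted p = 0.0333), -2.15 (0.00917), -2.27 (0.00836) and -1.45 (0.139). The passage 2 call was lost in the compared-groups fit (0.0815), where passage 4 passed (0.00302), as it did without the low-spread arrays (0.0481). The passage 1 call was lost without any 1 of its 6 arrays (-1.99 to -1.64, adjusted p = 0.051 to 0.13), the passage 2 call without knockout replicate 1 (-1.57, 0.0656) or 3 (-1.82, 0.0653), and the passage 3 call without knockout replicate 1 (-1.92, 0.0722). With added miR-126 the differences from normal were -1.14 (adjusted p = 0.231), -2.18 (0.006), -3.76 (13.5-fold, 5.54e-06) and -2.66 (6.3-fold, 0.000818). The passage 2 and passage 4 calls were lost without the low-spread arrays (-1.09, adjusted p = 0.35, and -1.35, 0.264), and passage 2 also with spread as a covariate (-1.53, 0.0799). AE9a alone read -0.90, -0.98, -0.86 and -0.89 from normal, with adjusted p of 0.345, 0.331, 0.421 and 0.51, and passed at passages 2 and 3 in the compared-groups fit (0.0168 and 0.0479).

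Prtn3 encodes proteinase 3, the target of autoantibodies in granulomatosis with polyangiitis. It passed in no comparison between the leukaemia arms. Normal mice read 10.61, 11.00 and 10.55, AE9a mice 8.85 to 10.41 with a median of 9.53, AE9a+miR-126 mice 7.10 to 10.40 with a median of 9.52, and miR-126KO+AE9a mice 7.85 to 10.23 with a median of 9.06. All 36 leukaemia mice lay below the lowest normal mouse. The lowest value of all belonged to AE9a+miR-126 passage 3 replicate 3, at 7.10 beside 9.26 and 9.51 in the same group. Against AE9a over the 4 passages Prtn3 differed by -0.08 ± 0.24 with added miR-126 (adjusted p = 0.785) and by -0.48 ± 0.24 in the knockout (adjusted p = 0.304). Against normal it fell in the knockout at passage 2 (-1.88, adjusted p = 0.00922) and passage 3 (-1.88, 0.0134) and read -1.37 (0.071) and -1.42 (0.0882) at passages 1 and 4. With added miR-126 it fell at passage 3 (-2.10, adjusted p = 0.000728), where the value with spread as a covariate was -1.26 (0.224), and read -0.81 (0.364), -0.997 (0.122) and -1.05 (0.0992) at passages 1, 2 and 4. AE9a read -1.11, -1.25, -1.15 and -1.12, with adjusted p of 0.16, 0.111, 0.162 and 0.258, and passed in the compared-groups fit at each passage (0.0492, 0.00507, 0.011 and 0.0122). The knockout differences at passages 1 and 4 passed in that fit (0.00436 and 0.00367), after cyclic loess (0.0142 and 0.0296) and without the low-spread arrays (0.0254 and 0.0305), while the passage 2 call was lost in the compared-groups fit (0.0628). The knockout calls were lost at passage 2 without knockout replicate 1 (-1.38, 0.065) or 3 (-1.68, 0.0536) and at passage 3 without knockout replicate 1 (-1.66, 0.0807) or normal replicate 2 (-1.74, 0.0608). Passage 4 with added miR-126 passed without its replicate 3 (-1.31, 0.0453), as did its passage 3 difference from AE9a without replicate 2 (-1.39, 0.0273).

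Ctsg encodes cathepsin G, a protease with chymotrypsin-like cleavage. Against AE9a over the passages it rose with added miR-126 and fell in the knockout. In the fit of all groups no other member passed in opposite directions in the miR-126 arms. Normal mice read 11.73, 11.46 and 11.13. AE9a mice read 9.37, 10.32 and 10.92 at passage 1, then 9.42, 9.89 and 11.00, then 11.20, 9.99 and 10.43, and at passage 4 read 9.69, 11.01 and 11.01. Mice of AE9a+miR-126 read 10.29, 11.16 and 10.69 at passage 1, then 12.08, 12.06 and 10.99, then 12.23, 12.03 and 10.41, and at passage 4 read 12.26, 12.12 and 12.61. The 3 mice at passage 4 lay above every AE9a, knockout and normal mouse. Mice of miR-126KO+AE9a read 8.55, 8.39 and 8.80 at passage 1, then 8.17, 11.26 and 8.85, then 7.25, 8.80 and 8.46, and at passage 4 read 9.66, 8.84 and 8.95. At passages 1, 3 and 4 all knockout mice lay below all AE9a mice of the same passage.

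With added miR-126 Ctsg rose against AE9a over the 4 passages by 1.22 ± 0.29 (2.33-fold, adjusted p = 0.00104), with single passages at 0.51 (adjusted p = 0.989), 1.61 (0.0721), 1.02 (0.137) and 1.76 ± 0.58 (3.38-fold, 0.0273). In the knockout it fell by 1.52 on the log2 scale (-1.52 ± 0.29, 2.87-fold, adjusted p = 0.000569), with single passages at -1.63 (adjusted p = 0.167, and 0.0257 in the compared-groups fit), -0.67 (0.577), -2.37 ± 0.58 (5.16-fold, 0.0361) and -1.42 (0.387). Both averages kept their calls without any 1 of their 24 arrays, at 1.11 to 1.37 and -1.75 to -1.36. Without the low-spread arrays the rise was 1.15 (adjusted p = 0.156), with spread as a covariate and after cyclic loess it stayed past the threshold, and over 8 alternatives its adjusted p ran from 2.65e-05 to 0.156. In the AE9a+miR-126 arm Ctsg read 10.29 to 12.61 on the 5 arrays of ordinary spread and 10.41 to 12.26 on the 7 low-spread arrays. The medians were 10.99 and 12.08, so higher Ctsg values and low spread tended to fall on the same arrays. The passage 4 rise was lost with spread as a covariate (1.96, adjusted p = 0.0624), without the low-spread arrays (2.04, 0.131), and without AE9a replicate 1 (1.32, 0.152) or AE9a+miR-126 replicate 1 (1.79, 0.0789) or 2 (1.86, 0.0701), over alternatives from 0.00545 to 0.131. The passage 2 and 3 differences passed after cyclic loess (1.99, 0.0327, and 2.16, 0.00389), passage 2 also without AE9a+miR-126 replicate 3 (1.97, 0.0292) and passage 3 without its replicate 3 (1.59, 0.0462). The passage 3 fall in the knockout was lost without any 1 of 5 of its 6 arrays, AE9a replicate 2 being the exception (adjusted p = 0.041 to 0.247 over the 6), and in a fit of the compared groups only (0.0801).

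Against normal controls Ctsg in the knockout differed by -2.86 (7.26-fold, adjusted p = 0.000993), -2.01 (0.0181), -3.27 (9.62-fold, 0.000364) and -2.29 (0.0137). In AE9a it read -1.23 (adjusted p = 0.192), -1.34 (0.164), -0.90 (0.419) and -0.87 (0.549), of which the first and second passed in the compared-groups fit (0.0352 and 0.0302). With added miR-126 it read -0.72 (adjusted p = 0.543), 0.27 (0.743), 0.12 (0.869) and 0.89 (0.238), and at passage 4 all 3 mice lay above all 3 normal mice. The sign at passages 2 and 3 was not stable: passage 2 read -0.45 without the low-spread arrays, and passage 3 read -0.22 to 0.69 with 1 array left out. The knockout call at passage 2 was lost without knockout replicate 1 (-1.38, 0.115) or 3 (-1.72, 0.0975) or normal replicate 1 (-1.87, 0.0717), in the compared-groups fit (0.105) and without the low-spread arrays (-1.72, 0.0642), and that at passage 4 without knockout replicate 2 (-2.13, 0.0762) or normal replicate 1 (-2.14, 0.0654).

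Prss57 encodes a granule serine protease that cuts after arginine. It fell against normal controls in all 12 leukaemia groups. Normal mice read 8.88, 8.47 and 8.31. AE9a mice read 5.67, 6.04 and 6.42 at passage 1, then 6.19, 5.75 and 6.64, then 6.67, 6.22 and 6.34, and at passage 4 read 6.56, 7.03 and 7.09. Mice of AE9a+miR-126 read 5.74, 6.52 and 6.29 at passage 1, then 5.92, 6.94 and 7.16, then 7.01, 7.03 and 5.65, and at passage 4 read 7.15, 6.83 and 8.62. Replicate 3 of passage 4 was the single leukaemia mouse within the normal range. Mice of miR-126KO+AE9a read 5.35 to 6.35 with a median of 6.03, and all 12 lay below the lowest normal mouse.

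The differences of Prss57 from normal were -2.51 ± 0.38 (5.68-fold, adjusted p = 5.77e-05), -2.36 (7.37e-05), -2.14 (0.00028) and -1.66 (0.00631) in AE9a. They were -2.37 (adjusted p = 8.38e-05), -1.88 (0.000938), -1.99 (8.65e-05) and -1.02 (0.0386) with added miR-126, and -2.77 (5.96e-06), -2.75 (9.73e-06), -2.44 (6.72e-05) and -2.38 (0.000114) in the knockout. Among the arms the average with added miR-126 was 0.35 ± 0.19 above AE9a (adjusted p = 0.107) and the knockout was 0.42 below it (-0.42 ± 0.19, 0.214), a difference that passed in the compared-groups fit (0.0298) and without the low-spread arrays (0.0426). The first of these passed with spread as a covariate (1.00, adjusted p = 0.000693), after cyclic loess (0.49, 0.0204), without the low-spread arrays (0.95, 0.00385), and without AE9a+miR-126 passage 2 replicate 1 (0.45, 0.0434), passage 3 replicate 3 (0.47, 0.0292) or passage 4 replicate 2 (0.44, 0.0482), over 8 alternatives from 0.000693 to 0.167. At passage 4 the difference from AE9a was 0.64 (adjusted p = 0.193), and passed with spread as a covariate (1.46, 0.00359) and without the low-spread arrays (1.73, 0.00268). The passage 4 fall against normal with added miR-126 was lost in 4 alternatives, turned to 0.072 (adjusted p = 0.959) without the low-spread arrays, and was lost without AE9a+miR-126 replicate 1 (-0.83, 0.176) or 2 (-0.67, 0.267) or normal replicate 1 (-0.86, 0.149) or 2 (-1.06, 0.0689). The passage 3 fall against normal read -0.69 (adjusted p = 0.278) with spread as a covariate.

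**Figure D2:**
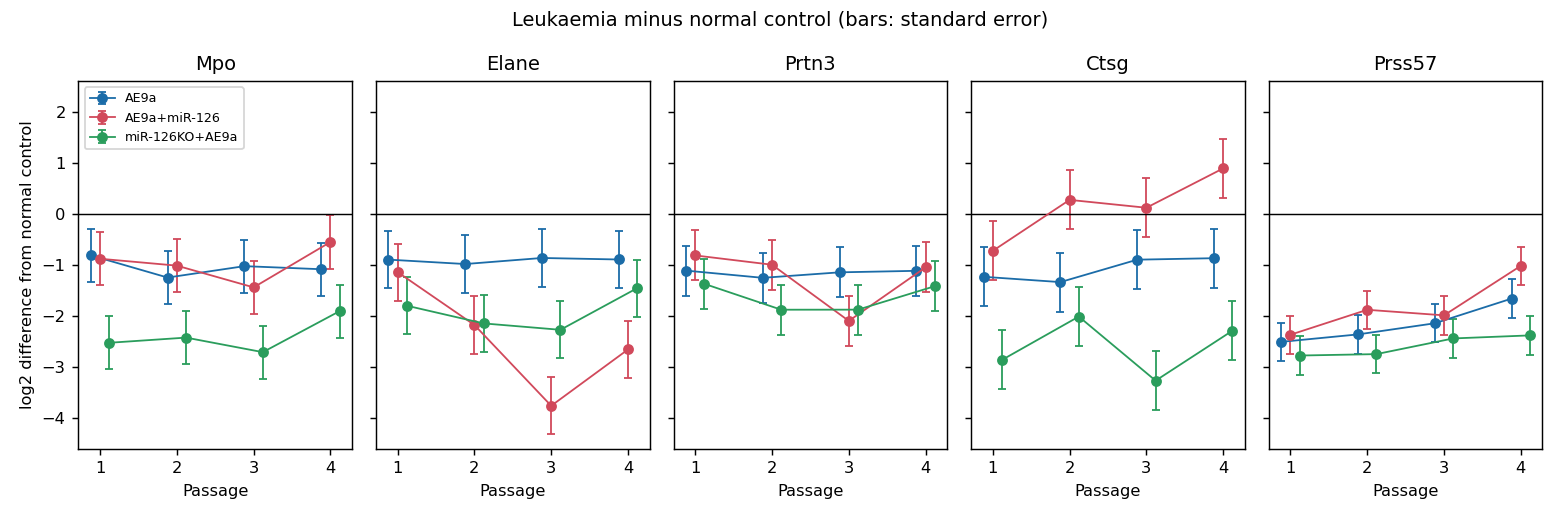
Log2 difference of each leukaemia group mean from the normal control mean by passage (points, with standard errors of the fit as bars; lines join the passages of an arm and different mice). The knockout arm lies between -1.37 and -3.27 for all 5 genes, and Ctsg with added miR-126 lies between -0.72 and 0.89.

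Counted over the 5 genes, the comparisons with normal controls gave falls only. At passage 1 AE9a had 1 of 5 lower (Prss57), while 8.87% of all genes passed. The corresponding numbers were 1 of 5 with added miR-126 (9.73% of genes) and 4 of 5 in the knockout (10.8%). At passage 2 they were 1 of 5 in AE9a (9.81%), 2 of 5 with added miR-126 (27.7%) and 5 of 5 in the knockout (14.9%). At passage 3 they were 1 (8.98%), 4 (59%) and 5 (7.82%), and at passage 4 they were 1 (4.4%), 2 (31.5%) and 3 (5.68%). The median difference of the 5 genes was -1.11, -0.88 and -2.52 in the 3 arms at passage 1, while that of all genes lay at 0.03, 0.01 and 0.02. In AE9a all 5 genes lay below normal at each passage, and 3, 4, 2 and 3 of them had an unadjusted p under 0.05. The share of all genes at that unadjusted threshold was not counted. All percentages of genes here and below are shares past the adjusted threshold, so they are no background for the unadjusted counts. The share in the knockout arm was above the share of all genes at each passage, and the share with added miR-126 at passage 3 was set beside a background of 59% of genes. All 12 comparisons share the same 3 normal controls.

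Against AE9a, which both miR-126 arms share as control, added miR-126 gave 0 of 5 at passage 1 (0 at an unadjusted p under 0.05, 0.0316% of genes called in limma). At passage 2 it gave 0 of 5 (Ctsg above and Elane below at an unadjusted p under 0.05, 8.85% of genes), at passage 3 Elane lower (52.2%), at passage 4 Elane lower and Ctsg higher (24.7%), and over all passages again Elane lower and Ctsg higher (55.1%). The median of the 5 genes in that average was 0.07 and that of all genes 0.08. At passages 3 and 4 the median of all genes was 0.12 and 0.13, and -0.02 and -0.00 after cyclic loess. The knockout gave 0 of 5 at passage 1 (Mpo and Ctsg at an unadjusted p under 0.05, both lower, 2.09% of genes in limma), 0 at passage 2 (2 at an unadjusted p under 0.05, both lower, 3.99%), Ctsg lower at passage 3 (1.05%) and 0 at passage 4 (1 at an unadjusted p under 0.05, lower, 1.33%). Over all passages Mpo, Elane and Ctsg fell (3 of 5, against 8.17% of genes), with a median of -1.01 for the 5 and 0.01 for all genes. These 3 averages kept their calls without any 1 of 24 arrays, at -1.57 to -1.23 for Mpo, -1.23 to -0.86 for Elane and -1.75 to -1.36 for Ctsg, and under the 8 alternatives, of which the mean of probe sets could not move genes with 1 probe set. Erythroid markers were higher in the knockout than in AE9a: of 7 measured, 6 rose over the passages (median 1.94). Their mean level per array was 6.48 to 8.59 in the knockout and 5.23 to 8.41 in AE9a. Normal controls, where the primary granule genes were high, read 7.511 to 8.365, within the knockout range. With added miR-126 4 of the 7 fell (median -0.71), and the mean level per array was 4.90 to 5.66. Of 12 monocyte and macrophage markers 2 rose and 1 fell in the knockout (median 0.29), and 9 fell with added miR-126 (median -0.82). T and NK cell markers fell in 5 of 9 in the knockout, and in 5 of 9 with 2 higher with added miR-126. B cell markers fell in 1 of 9 and in 2 of 9 with 1 higher, and stroma and endothelium markers in 1 of 10 and in 1 of 10 with 3 higher. The part of these cell types in the values of the 5 genes was not tested.

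**Figure D3:**
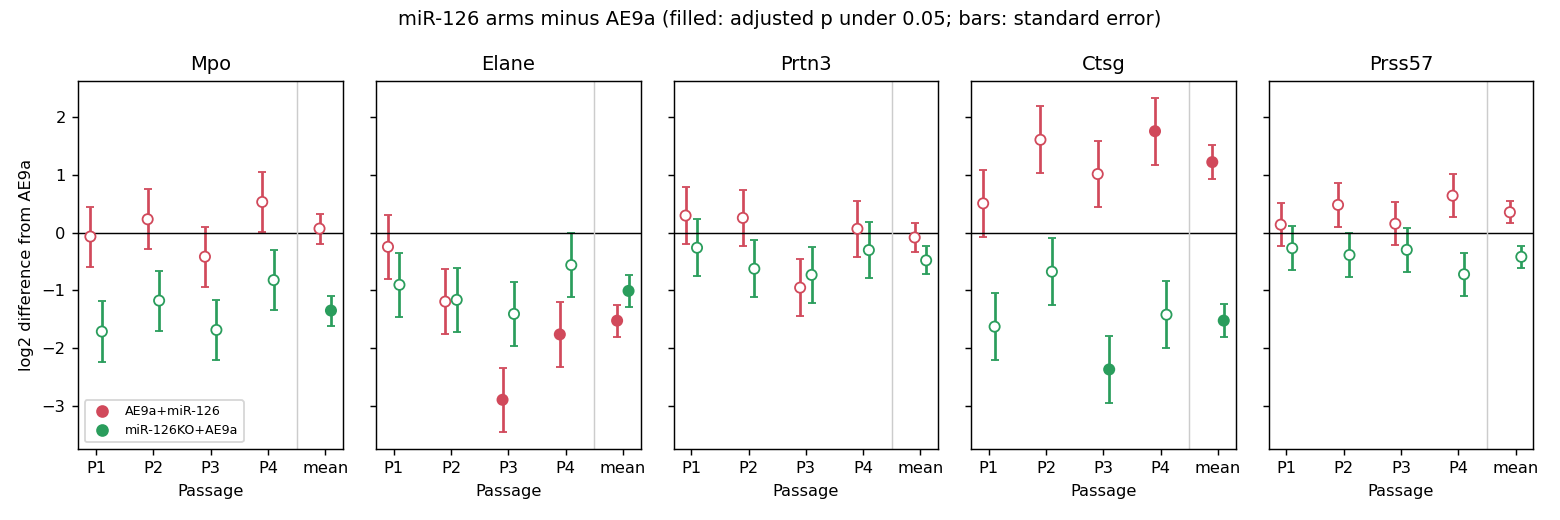
Log2 difference of each miR-126 arm from AE9a at passages 1 to 4 and as the average of the passages (points; bars are standard errors; filled points passed at an adjusted p under 0.05). Ctsg lies above 0 with added miR-126 and below 0 in the knockout at every passage, while both arms lie below 0 for Elane.

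Compared directly over the 4 passages, AE9a+miR-126 exceeded miR-126KO+AE9a in Ctsg by 2.75 ± 0.29 (6.71-fold, adjusted p = 1.82e-08), in Mpo by 1.42 ± 0.26 (2.67-fold, 8.89e-05) and in Prss57 by 0.77 ± 0.19 (1.71-fold, 0.00161). Prtn3 was 0.40 ± 0.24 higher (adjusted p = 0.172) and Elane 0.52 lower (-0.52 ± 0.28, 0.121). That is 3 of 5 higher where 49.7% of genes passed. Ctsg, Mpo and Prss57 kept their calls without any 1 of 24 arrays, at 2.59 to 2.98, 1.31 to 1.65 and 0.64 to 0.89, and under the 8 alternatives. Elane passed without AE9a+miR-126 passage 2 replicate 3 (-0.65, adjusted p = 0.046), passage 4 replicate 3 (-0.68, 0.0284) or knockout passage 2 replicate 1 (-0.66, 0.0489). Prtn3 passed without knockout passage 2 replicate 2 (0.57, 0.034) or AE9a+miR-126 passage 3 replicate 3 (0.59, 0.0267), and after cyclic loess (0.82, 0.00355).

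The unequal change of Ctsg and Elane was seen within single arrays. The pair was chosen after its values had been seen, so no test is given. In normal mice the log2 value of Ctsg minus that of Elane was -0.50 to -0.32, and in AE9a mice it was -0.86 to -0.68, -1.14 to -0.30, -0.67 to -0.16 and -0.85 to -0.16 at passages 1 to 4. With added miR-126 it was, in passage order, -0.65 to 0.69, 0.22 to 3.09, 2.58 to 4.13 and 2.09 to 4.15. Every AE9a+miR-126 mouse from passage 2 on had a positive difference, and no normal, AE9a or knockout mouse had one. In the knockout it was -1.90 to -1.20, -0.40 to -0.22, -1.63 to -1.18 and -1.70 to -1.03. On the 2 late arrays of ordinary spread with added miR-126 the difference was 0.22 (passage 2 replicate 3) and 2.09 (passage 4 replicate 3), the lowest of their groups. The offset between 2 probe sets has no meaning of its own, and only its change between arrays is described.

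**Figure D4:**
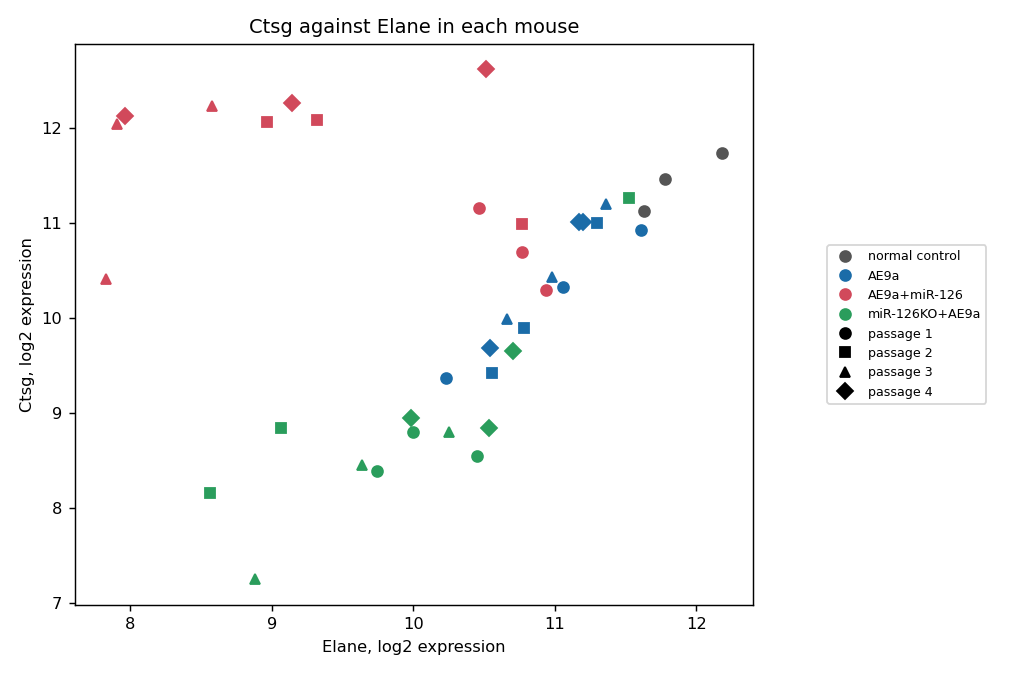
Log2 expression of Ctsg (vertical) against Elane (horizontal), 1 point per mouse, with colours for arms and shapes for passages. AE9a+miR-126 mice of passages 2 to 4 had Ctsg at 10.41 to 12.61 and Elane at 7.83 to 10.77. Ctsg minus Elane was positive in these mice and negative in all normal, AE9a and knockout mice. It was -0.50 to -0.32 in normal mice and -1.14 to -0.16 in AE9a mice. In knockout mice it was -1.90 to -1.03 at passages 1, 3 and 4 and -0.40 to -0.22 at passage 2.

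Between passages 1 and 4 the primary granule genes of AE9a and of the knockout gave 0 of 5 past the threshold. In AE9a 1 gene had an unadjusted p under 0.05, Prss57 (0.85 higher, adjusted p = 0.275; 2.94% of genes called in limma), and it passed without the low-spread arrays (0.85, 0.0433). In the knockout 0 had an unadjusted p under 0.05 (4.04%), and Ctsg was 0.57 higher (adjusted p = 0.867), with all 3 mice of passage 4 above those of passage 1. With added miR-126, Ctsg rose by 1.61 ± 0.58 (3.06-fold, adjusted p = 0.0414), Prss57 rose by 1.35 ± 0.38 (2.55-fold, 0.00992) and Elane fell by 1.51 on the log2 scale (-1.51 ± 0.56, 0.047), where 24.3% of genes passed. The mice of passages 1 and 4 did not overlap for Ctsg and Prss57 and did overlap for Elane (7.97 to 10.52 against 10.46 to 10.94). The Elane call was lost without any 1 of 5 of the 6 arrays, passage 4 replicate 3 being the exception (-2.17 to -0.89, adjusted p = 0.0034 to 0.339 over the 6). The Ctsg call was lost without any 1 of 5 as well, passage 1 replicate 2 being the exception (1.40 to 1.84, adjusted p = 0.0439 to 0.147), and the Prss57 call without passage 1 replicate 1 (1.13, 0.0687) or passage 4 replicate 3 (0.80, 0.0698) or in the compared-groups fit (0.142). Without the low-spread arrays Elane read -0.21 (adjusted p = 0.94) and Ctsg 1.90 (0.141), and with spread as a covariate Ctsg read 1.81 (0.0667) and Elane -0.77 (0.471). Whether the effect of added miR-126 itself changed from passage 1 to 4 was tested as a difference of differences: it gave 0 of 5 (0 at an unadjusted p under 0.05, 10.5% of genes in limma), with Elane at -1.52 ± 0.79 (adjusted p = 0.181) and Ctsg at 1.25 ± 0.82 (0.282). Elane passed without 1 array, at values from -2.17 to -0.90 over the 12 left out in turn (adjusted p = 0.0282 to 0.509). The change of the knockout effect gave 0 of 5 as well (0 at an unadjusted p under 0.05, 0.428% of genes in limma), with the largest difference in Mpo (0.89 ± 0.74, 0.863).

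Within groups the 5 genes tended to be high in the same mouse. In 6 of 13 groups 1 mouse had the highest value of all 5 genes, in 7 of 13 groups 1 mouse had the lowest value of all 5, and both held in 4 groups. AE9a passage 1 is an example, with replicate 3 highest and replicate 1 lowest throughout. The mouse lowest in all 5 genes had the lowest array SD of its group in AE9a passage 1 (1.86) and normal controls (1.868). The same held in miR-126KO+AE9a passage 3 (1.97) and AE9a+miR-126 passages 3 (1.428) and 4 (1.629). In AE9a passage 4 (2.059) and miR-126KO+AE9a passage 2 (1.964) that mouse had the highest SD. How often other genes share an order was not counted, and the part of array spread was not tested. In miR-126KO+AE9a passage 2, replicate 2 was highest in all 5 genes, and its mean level of 18 secondary and tertiary granule genes was 10.36 against 8.83 and 8.18 in the other mice. Without this mouse the passage 2 falls against normal were -2.93 for Ctsg, -3.05 for Elane and -2.57 for Prtn3. With added miR-126 at passage 2 the genes did not share an order, since replicate 1 had the highest Ctsg and Prtn3 and the lowest Mpo and Prss57. In passage 4 of that arm, replicate 3 was highest in all 5 genes and was the 1 array of ordinary spread.

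Over the 13 group means, Mpo was most like Ctsg (r = 0.839), followed by Prtn3 (0.786) and Prss57 (0.744). Elane was like Prtn3 (r = 0.743), its chromosomal neighbour, and unlike Ctsg (-0.0939), Prss57 (0.248) and Mpo (0.422). These correlations describe group means that share arrays, normalization and spread, and carry no test. Among genes with a mean level above 7 in at least 1 group, those whose group means were most like the mean profile of the 5 were Mgst2 (r = 0.936), a glutathione transferase of the microsomal membrane, Gpr160 (0.929), Gbe1 (0.927), the glycogen branching enzyme, Oscp1 (0.917), Lbp (0.916), Svip (0.909), Fam193b (0.896) and Parvg (0.889). Mgst2 averaged 8.52 in normal controls, 7.02 to 7.30 in AE9a, 6.96 to 7.24 with added miR-126 and 5.91 to 6.37 in the knockout. Gbe1 averaged 9.13 in normal controls and 7.07 to 7.39 in the knockout. Since these 8 genes were picked for group means that follow the members in the knockout groups too, their differences between groups are given without a test. Against AE9a over the passages Mgst2 differed by -1.04 in the knockout, Gbe1 by -0.79, Lbp by -1.32 and Parvg by -1.01. With added miR-126 the same genes differed by -0.09, 0.32, 0.05 and -0.36. The single genes most like each member were Gbe1 for Mpo (r = 0.94), Dennd1c for Elane (0.954), Alg2 for Prtn3 (0.893), Gramd1b for Ctsg (0.931) and Tspan2 for Prss57 (0.954).

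Other contents of the primary granule were examined next (11 of 12 listed genes measured). At passage 1, 2 of 11 fell in AE9a against normal, 1 in AE9a+miR-126 and 3 in miR-126KO+AE9a, with medians of -0.48, -0.32 and -0.45, where 5.64%, 5.18% and 5.91% of all genes were lower. Nkg7, which encodes a granule membrane protein, fell by 1.91 in AE9a (-1.91 ± 0.41, adjusted p = 0.00315), by 3.06 in the knockout (-3.06, 5.3e-06) and, with added miR-126, at -2.40 (0.000194). Ms4a3, a membrane protein of granulocyte-monocyte progenitors, fell in the knockout (-3.14 ± 0.54, adjusted p = 0.000168) and read -1.63 (0.0561) in AE9a. With added miR-126 the 1 gene that fell was Nkg7, so Ms4a3 did not pass as lower there. Against AE9a over the passages, 5 of 11 fell and 1 rose with added miR-126 (median -0.33) and 3 fell in the knockout (median -0.12). Of all genes 55.1% were called with added miR-126 (30.7% higher and 24.3% lower) and 8.17% in the knockout (2.88% higher and 5.29% lower), and these shares are the background for each list below, so the 6 of 11 called with added miR-126 lie near it. Lysozyme 2 (Lyz2), which is shared with monocytes, fell with added miR-126, at -1.56 ± 0.15 (adjusted p = 5.39e-09) and read -0.06 in the knockout (0.91). The tetraspanin Cd63, a marker of primary granule membranes, fell in the knockout by 2.39 (-2.39 ± 0.25, adjusted p = 1.72e-07) and read -0.33 with added miR-126 (0.26). Bpi rose by 0.13 (adjusted p = 0.0477).

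The genes that process and pack the proteases fell in 8 of 11 with added miR-126 (median -0.44) and in 2 of 11 in the knockout (median -0.10), against AE9a over the passages, where 24.3% and 5.29% of all genes were lower. Ctsc, whose product cathepsin C activates the granule serine proteases, fell by 1.87 with added miR-126 (-1.87 ± 0.17, adjusted p = 1.39e-09), and by 2.69 at passage 4 (-2.69 ± 0.34, 1.18e-06). In the knockout Ctsc read 0.40 (adjusted p = 0.173). Lyst, the granule size regulator of Chediak-Higashi syndrome, fell in both arms (-1.94, adjusted p = 9.89e-07, and -1.25, 0.00137), as did Rab27a, a GTPase of granule release (-1.15, 0.000274, and -1.08, 0.00256). Srgn, the serglycin core protein, read -0.16 (adjusted p = 0.0611) and 0.03 (0.912), and Calr, a chaperone of the myeloperoxidase precursor, -0.10 in both (0.381 and 0.709). At passage 1 against normal, 1 of the 11 rose and 1 fell in AE9a, 2 fell with added miR-126, and 1 rose and 2 fell in the knockout. Of all genes 8.87%, 9.73% and 10.8% were called in these comparisons.

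Inhibitors of these proteases (9 of 10 listed measured) gave 3 higher and 3 lower with added miR-126 (median 0.17) and 2 lower in the knockout (median 0.02), beside 55.1% and 8.17% of all genes called. Serpinb1a, the main cytosolic inhibitor of elastase, proteinase 3 and cathepsin G, fell in both arms (-1.005 ± 0.25, adjusted p = 0.00182, and -0.94 ± 0.25, 0.0157). Slpi, the secreted inhibitor of elastase and cathepsin G, fell in both too (-1.12, adjusted p = 9.54e-07, and -1.21, 2.2e-06).

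Transcription factors of primary granule genes (12 measured) gave 1 higher and 5 lower with added miR-126 (median -0.21) and 1 higher and 2 lower in the knockout (median 0.11). The 6 of 12 called with added miR-126 lie near the 55.1% of all genes, and 8.17% of all genes were called in the knockout. Myb, a factor of blood progenitors, rose by 2.44 ± 0.20 with added miR-126 (adjusted p = 4.24e-10) and read 0.00 in the knockout (0.997). Cebpe, which drives secondary granule formation, fell by 1.41 with added miR-126 (-1.41 ± 0.30, adjusted p = 0.000414) and by 1.92 in the knockout (-1.92 ± 0.30, 6.47e-05). Gfi1, a repressor needed for neutrophil maturation, fell in the knockout (-0.70 ± 0.17, adjusted p = 0.00604) and read -0.04 with added miR-126 (0.833), while Spi1, which encodes PU.1, fell with added miR-126 (-0.81 ± 0.13, 1.02e-05) and read 0.00 in the knockout (0.999). Cebpa, which drives the step to granulocyte-monocyte progenitors, passed in neither (0.13, adjusted p = 0.676, and 0.23, 0.75). Against normal at passage 1, 5 of 12 fell in AE9a (median -0.95, with 5.64% of all genes lower), among them Irf8 (-1.72, adjusted p = 0.00562), Gfi1 (-1.21, 0.0219) and Myb (-1.47, 0.0215).

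Genes of granulocyte-monocyte progenitors (12 measured) gave 2 higher and 9 lower with added miR-126 (median -0.83) and 4 lower in the knockout (median -0.25), where 24.3% and 5.29% of all genes were lower. The 2 that rose with added miR-126 were Flt3 and Cd34, both markers of immature cells (1.48, adjusted p = 0.000357, and 1.00, 0.00199). Kit, Sox4 and Cd27 of the same list were not among the genes that rose. Csf3r, the G-CSF receptor, fell in both arms (-1.92, adjusted p = 2.01e-07, and -1.06, 0.00247).

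Secondary and tertiary granule genes, which mark the stages after the primary granule is filled, fell in both miR-126 arms: 16 of 18 with added miR-126 (median -1.83) and 12 of 18 in the knockout (median -0.99), while all genes had medians of 0.08 and 0.01 and 24.3% and 5.29% of them were lower. Their mean level per group was 11.38 in normal controls, 11.20, 10.59, 10.69 and 10.90 in AE9a, 10.64, 10.23, 8.46 and 7.39 with added miR-126, and 9.89, 9.12, 9.68 and 10.05 in the knockout. At passage 4 with added miR-126 the 3 mice read 7.31, 7.19 and 7.68, of which the array of ordinary spread had 7.68, and 15 of 18 fell against AE9a (median -3.60, with 12% of all genes lower). In the same mice Ctsg was at its highest. Ltf (lactoferrin) fell by 5.91 there (-5.91 ± 0.67, adjusted p = 3.04e-07), Camp (cathelicidin) by 5.58 (-5.58, 2.27e-05) and Itgam (CD11b) by 4.59 (-4.59, 4.88e-08). At passage 1, 2 of 18 fell and 1 rose against normal in AE9a, 1 fell with added miR-126 and 9 fell in the knockout, where 5.64%, 5.18% and 5.91% of all genes were lower.

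**Figure D5:**
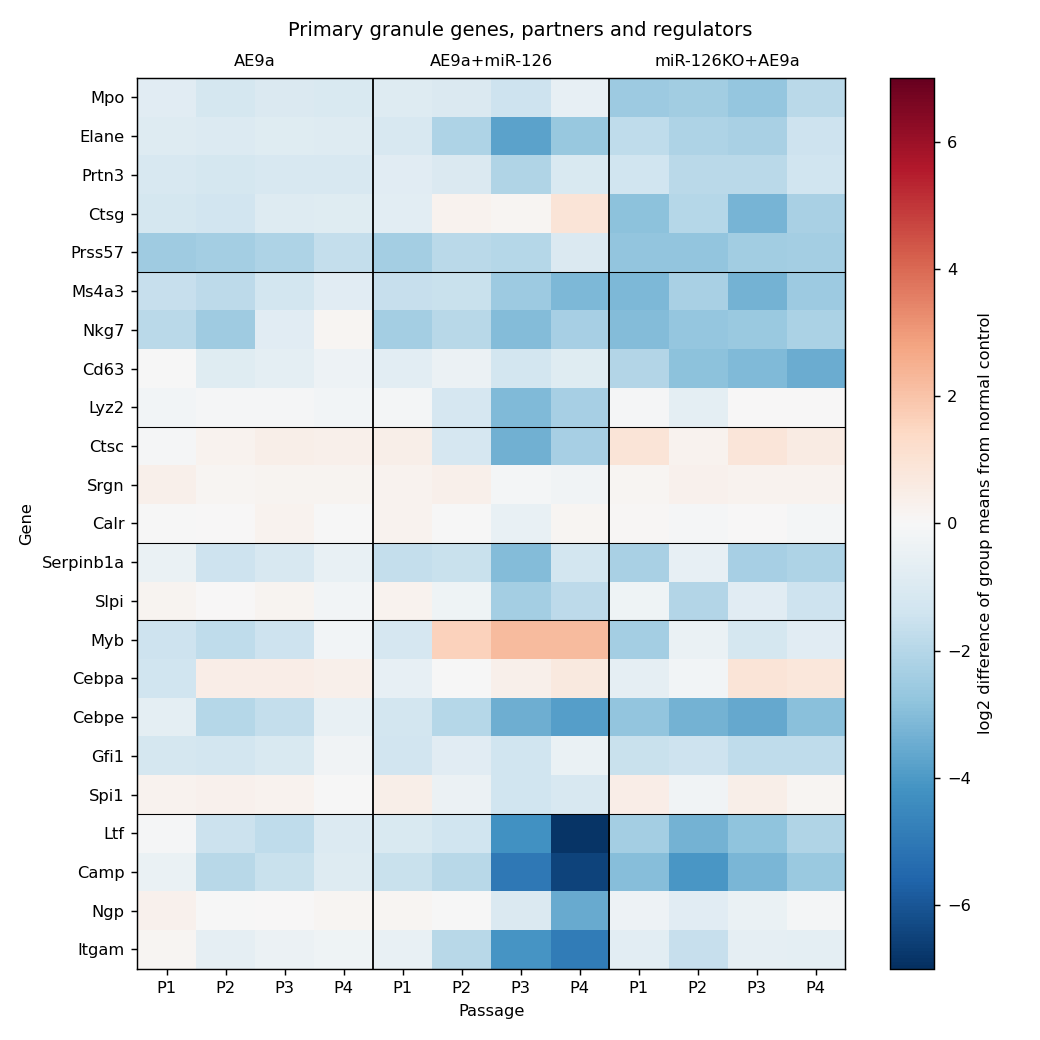
Difference of each group mean from the normal control mean on the log2 scale (colour, blue lower and red higher) for the 5 genes, other granule contents, processing and packing genes, inhibitors, transcription factors and secondary granule genes (rows) in the 12 leukaemia groups (columns). Myb means lie above the normal mean with added miR-126 from passage 2 on, Ctsg lies at 0.27, 0.12 and 0.89 there with no call, and Ltf, Camp and Itgam fall furthest at passage 4 of that arm.

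Related proteases and peroxidases (21 of 24 measured) gave 4 higher and 3 lower with added miR-126 and 5 higher and 4 lower in the knockout against AE9a, with medians of 0.09 and -0.02, beside 55.1% and 8.17% of all genes called. Mcpt8, a basophil protease gene next to Ctsg on chromosome 14, fell against normal at passage 1 in AE9a (-3.51 ± 0.50, adjusted p = 3.37e-05). It rose against AE9a at passage 4 with added miR-126 (1.83 ± 0.50, 0.00934) and fell in the knockout over the passages (-1.45 ± 0.25, 0.00016). The mast cell proteases Mcpt1 (1.81 ± 0.26, adjusted p = 1.43e-05) and Tpsb2 (1.59, 1.2e-05) rose in the knockout. Epx, the eosinophil peroxidase gene near Mpo on chromosome 11, fell against normal at passage 1 in all 3 arms (-1.99, -2.21 and -2.40, adjusted p = 7.93e-05, 1.26e-05 and 2.33e-06). Of 12 measured markers of basophils, mast cells and eosinophils 7, 7 and 5 fell in those comparisons (5.64%, 5.18% and 5.91% of all genes), and against AE9a 8 fell and 1 rose with added miR-126 and 3 fell and 1 rose in the knockout (55.1% and 8.17% of all genes called). Among the 23 other genes that neighbour the 5, 3 tested genes on each side, 6 fell in AE9a at passage 1, 7 rose and 3 fell with added miR-126 over the passages, and 3 fell in the knockout. Of all genes 5.64% were lower in the first of these comparisons, and 55.1% and 8.17% were called in the others, so the 10 of 23 called with added miR-126 lie below the share of all genes. Plppr3 and Med16, which flank the Prtn3 and Elane pair, read 0.42 (adjusted p = 0.0249) and -0.37 (0.0361) with added miR-126.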

How the data were processed

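RNA from 39 mice was hybridised to Affymetrix Mouse Gene 2.0 ST arrays, 1 per mouse. The authors' deposited values are on the log2 scale for 27037 probe sets and were made with RMA and Partek 6.0, per the submitters' processing notes. RMA brings the probe intensities of all arrays to a common distribution, which can move a gene where many others change. Platform annotation gave 1 symbol for 23521 probe sets, and for genes with several the highest mean was kept.

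All arrays entered 1 limma 3.58.1 fit (R 4.3.3) with 13 group means and 26 residual degrees of freedom, which was checked on simulated data. The Benjamini-Hochberg adjustment ran over all 22180 genes, and averages weight passages equally. The 28 comparisons share controls. Arrays of a group correlated at 0.893 to 0.993, and 0 pairs were identical.

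The 5 members and all lists were chosen with earlier results of these data known. The members and list genes are named by those lists, with the 8 genes most like the members' mean profile and 3 neighbours on each side. Genes singled out from a list were chosen after their values were seen. Alternatives were a fit of the compared groups only, a replicate block, a trended and robust prior, a filter on dim genes (above 5 in at least 3 arrays), cyclic loess, spread as a covariate, arrays of low spread left out, the mean of probe sets, and each array left out.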

Additional observations from a re-analysis of the deposited data

How the results depend on the processing

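Counts are of the 5 genes past the threshold. In a fit of the compared groups only, genes lower than normal numbered 3, 5, 3 and 2 in AE9a at passages 1 to 4 (1 each in the fit of all groups), 3 and 1 with added miR-126 at passages 1 and 4 (1 and 2), and 1 and 5 in the knockout at passages 2 and 4 (5 and 3). Against AE9a that fit gave 2 lower in the knockout at passage 1 (0) and 0 at passage 3 (1), and 0 lower with added miR-126 at passage 4 (1). From passage 1 to 4 with added miR-126 it gave 0 lower (1) and 1 higher (2). After cyclic loess AE9a had 3 and 2 below normal at passages 2 and 3, and added miR-126 had 1 at passage 4. Against AE9a it gave 1, 1 and 2 higher at passage 2, passage 3 and on average with added miR-126 and 0 lower at passage 4, 1 lower in the knockout at passage 1, and 0 lower from passage 1 to 4 with added miR-126. In the knockout at passage 1, Prtn3 also passed below normal in the compared-groups fit, after cyclic loess and without the low-spread arrays. At passage 4 it passed after cyclic loess too.

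With array spread as a covariate, 1 gene each was below normal with added miR-126 at passages 2, 3 and 4 (2, 4 and 2). Against AE9a it gave 0 lower at passage 3, passage 4 and on average, and 1, 1 and 2 higher at passage 2, passage 3 and on average, with 1 lower in the knockout at passage 1. From passage 1 to 4 with added miR-126 it gave 0 lower and 1 higher. Without the arrays of low spread, 2 genes were below normal in AE9a at passage 2, 1 and 0 with added miR-126 at passages 2 and 4, and 5 in the knockout at passage 4, and Prss57 with added miR-126 at passage 4 turned to 0.072 above normal. Against AE9a that gave 0 lower with added miR-126 at passage 4 and on average and 1 lower in the knockout at passage 1. From passage 1 to 4 it gave 1 higher in AE9a, 0 lower and 1 higher with added miR-126, and 1 higher for the change of the miR-126 effect. No value without these arrays was possible at passage 3 with added miR-126. The causes were not tested, beyond fewer arrays in the fits that leave some out.

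Leaving out 1 array at a time gave 2 to 5, 3 to 5 and 1 to 3 genes below normal in the knockout at passages 2, 3 and 4 and 1 to 3 with added miR-126 at passage 4. The Elane call in the knockout at passage 1 was lost without any 1 of its 6 arrays. The Mpo call with added miR-126 at passage 3 was lost without either of 2 of its 6 arrays. Against AE9a, leaving out 1 array gave 0 to 2 and 0 to 1 lower in the knockout at passages 2 and 3. With added miR-126 it gave 0 to 1, 1 to 2 and 0 to 1 lower and 0 to 1 higher at each of passages 2, 3 and 4, and 1 to 2 higher on average. It gave 0 to 1 lower against the knockout, 0 to 1 lower and 0 to 2 higher from passage 1 to 4, and 0 to 1 lower for the change of the effect. Same-numbered mice did not deviate together (mean r = -0.0207), and a replicate block changed 1 call of 140, Elane from passage 1 to 4 with added miR-126 (-1.51, adjusted p = 0.0527 in limma, over alternatives from 0.0409 to 0.94), leaving 0 lower there. The prior and the filter on dim genes changed no call. The mean of probe sets could not move these genes, since each has 1 probe set.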
